A study of Mus musculus with 6 samples.

Results

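The complement regulators and receptors described here were 8 genes chosen by name: Cfp, Cfb, Cd55, Cd59a, Cr1l, C3ar1, C5ar1 and Vsig4. They were 8 of the 24061 gene symbols in a table of RNA-seq counts, and all 8 passed the filter on low counts that left 13348 genes for testing. The counts came from CD45+CD11b+F4/80+ cells, a gate for leukocytes of the macrophage lineage, sorted from the inguinal mammary glands of FVB/N mice after the lymph nodes were removed. The gate was divided by the surface receptor Lyve-1 into a Lyve-1+ and a Lyve-1- subset, which had 3 libraries each, and each library was a pool of cells from 4 mice. Replicate 1 of each subset was from mice 6 weeks old, and replicates 2 and 3 were from mice 10 weeks old. The mice carried no other treatment or allele in the labels. The comparison asked which of these genes differed between the subsets. Since each library holds RNA from a sorted pool, fewer cells that use a gene and less RNA per cell cannot be told apart. The p-values measure the spread between pools.

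Complement is a set of blood and tissue proteins that cleave one another in a cascade on the surface of microbes and damaged cells. The cascade deposits C3 fragments that mark a target for uptake, releases the small peptides C3a and C5a that act on leukocytes, and ends in a pore that can lyse the target. The alternative pathway is the loop that amplifies this process: factor B, the product of Cfb, supplies the protease of its convertase, and properdin, the product of Cfp, holds that convertase together. Host cells are shielded by membrane inhibitors. Cd55 (decay-accelerating factor) speeds the decay of convertases, Cr1l (Crry, the rodent regulator related to complement receptor 1) does so and also serves as a cofactor for the cleavage of C3b and C4b, and Cd59a blocks the assembly of the terminal pore. C3ar1 and C5ar1 are the G protein-coupled receptors for C3a and C5a. Vsig4 (CRIg) is a receptor of resident macrophages that binds C3b and iC3b and takes up particles coated with them. Macrophages are known as a local source of properdin, factor B and other complement proteins. The FVB/N strain is known to lack functional C5, the precursor of the C5ar1 ligand.

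Promoter sequences from RefSeq (GRCm38.p6, the C57BL/6J reference and not the FVB/N genome) were found for 7 of the 8 genes. The exception was Cfb. The 150 bases that end just before the RefSeq start are shown for Cr1l, the one gene of the group whose libraries did not overlap between the subsets, and for C3ar1 and C5ar1, the paired receptors whose levels followed each other most closely from library to library. All lie on the minus strand and are written 5′ to 3′ in the direction of the gene, and capitals mark the AP-1 motif TGACTCA. They span chr1:195131571-195131720 for Cr1l, chr6:122856158-122856307 for C3ar1 and chr7:16259339-16259488 for C5ar1. The GENCODE M21 annotation, used for exon lengths, places the C5ar1 gene at 16246743 to 16259540, so the whole C5ar1 stretch lies inside the gene there. The Cr1l and C3ar1 stretches reach into those genes by some bases only.
Cr1l: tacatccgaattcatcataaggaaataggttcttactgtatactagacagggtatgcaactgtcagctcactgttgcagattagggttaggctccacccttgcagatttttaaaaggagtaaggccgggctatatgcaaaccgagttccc
C3ar1: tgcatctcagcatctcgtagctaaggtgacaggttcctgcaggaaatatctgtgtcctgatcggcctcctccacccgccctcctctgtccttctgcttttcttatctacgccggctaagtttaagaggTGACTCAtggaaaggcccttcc
C5ar1: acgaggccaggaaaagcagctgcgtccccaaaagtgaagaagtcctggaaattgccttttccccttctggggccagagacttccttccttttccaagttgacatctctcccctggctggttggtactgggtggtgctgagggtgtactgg

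In these stretches G and C made up 44.0% of the bases for Cr1l, 52.7% for C3ar1 and 54.7% for C5ar1. The AP-1 motif TGACTCA, searched on both strands over the 250 bases before each start, was present in 1 of the 7 promoters, that of C3ar1, where it begins 22 bases before the start. It was present in 4.46% of all 32851 promoters in the table. The 6-letter core GAGGAA of sites for PU.1, a factor of the macrophage lineage, was present in the promoters of Cd59a and Vsig4 and in 23.3% of all promoters. These are matches of letters only.

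Library totals ran from 6478007 to 21406839 counts, so that 3 counts, the limit that a count of 0 allows, equalled 0.144 to 0.437 CPM (counts brought to the same library size by the TMM method). This limit covers counting error only. Lyve1, the gene of the sorting marker, was at 1.43, 6.66 and 7.43 CPM in the Lyve-1- libraries and at 2352, 788 and 597 CPM in the Lyve-1+ libraries, as labelled. F4/80 (listed as Emr1), CD11b (Itgam) and CD45 (Ptprc) were above 200 CPM in every library. Olfactory receptor genes, which are used mainly by olfactory neurons, had counts for 652 of 1122 genes in Lyve-1- replicate 3 and for 370 genes in replicate 1 of Lyve-1+ cells, beside 4 to 134 in the other 4 libraries. The common biological coefficient of variation was 0.931.

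The summed CPM of 9 macrophage marker genes was 3689 to 6061 in Lyve-1- and 5207 to 7614 in Lyve-1+ libraries, with none at 0. Sums of conventional dendritic cell markers (335 to 1385 against 48.1 to 222), T cell markers (77.8 to 153 against 21.2 to 65.0) and adipocyte markers (24.9 to 38.9 against 15.9 to 21) were lower in every Lyve-1+ library. In the Lyve-1- libraries the dendritic cell sum came mainly from Ccr7 (139, 458 and 505 CPM) and Ccl22 (139, 387 and 722 CPM). These genes and Xcr1 were lower in every Lyve-1+ library, while Flt3, Zbtb46, Clec9a and Itgae overlapped between the subsets. The adipocyte sum came mainly from 1 gene, Lipe (21.3 to 33.2 against 12.4 to 16.3 CPM). Of its 6 genes, 5 were at 0 in at least 1 library. The sums overlapped between the subsets for NK cells (2.13 to 21.7 against 0.126 to 7.71), mast cells (7.73 to 65.0 against 35 to 228), lymphatic endothelium (14.6 to 60.2 against 17.1 to 42.7), blood endothelium (54.7 to 137 against 79.6 to 241) and mammary epithelium (40.8 to 261 against 35.9 to 81.4). Those of monocytes, fibroblasts, neutrophils and B cells are given below, beside Cfb and the membrane inhibitors.

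No gene of the group passed an adjusted p of 0.05 in edgeR's quasi-likelihood test of Lyve-1+ against Lyve-1-. Over all genes tested, 60 (0.45%) were called higher in Lyve-1+ cells and 24 (0.18%) lower. At an unadjusted p under 0.05, 1 of the 8 was higher, Cr1l, beside 560 genes (4.2%) of all. DESeq2 also called 0 of the 8 (lowest adjusted p = 0.166) beside 343 genes (2.16%) of all with an adjusted p. It had 3 under an unadjusted p of 0.05, which were Cfb, Cr1l and Vsig4, beside 1488 genes (6.99%) of all in either direction. Stricter limits (log2 fold change between 1 and 10 in size, adjusted p under 0.01) called 15 genes (0.112%) and none of the 8. The Lyve-1+ libraries were all above the Lyve-1- libraries for 1044 genes (7.82%) and for 1 of the 8. All 8 log2 fold changes were above 0, with a median of 0.84, beside a median of -0.01 over all genes, of which 49.4% were above 0.

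**Figure D1:**
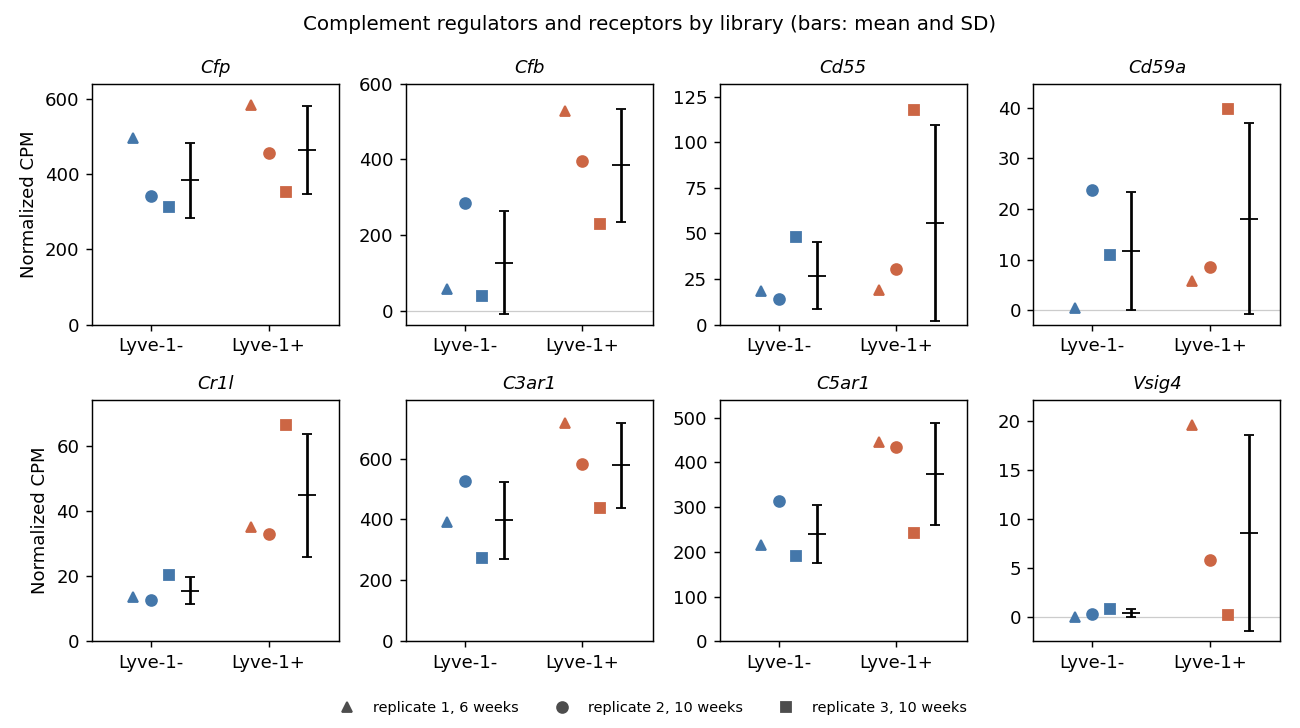
Normalized CPM (linear vertical axes, one per gene) of the 8 genes in each library of the Lyve-1- (blue) and Lyve-1+ (orange) subsets, with marker shapes for the replicates and bars for the mean and SD of 3 libraries; some SD bars reach below 0. Cr1l is the one gene whose groups do not overlap (12.7 to 20.3 against 33 to 66.5 CPM), and Cd55, Cd59a and Vsig4 each have 1 library far above the rest of its subset.

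Of the 2 genes of the alternative pathway, properdin was abundant in both subsets and factor B varied most between pools. Cfp (chromosome X, 20925454 to 20931555 on mm10, minus strand, 1636 bp of exon) was at 497, 342 and 313 CPM in Lyve-1- replicates 1 to 3 and at 584, 455 and 351 CPM in Lyve-1+ replicates 1 to 3. In each subset the 6-week library was the highest, and the subsets overlapped. The percentile of Cfp among the genes tested ran from 96.5 to 98.4 over the libraries. The means were 384 ± 99.3 and 464 ± 116 CPM (SD, n = 3), and the log2 fold change was 0.27 (SE 0.28, edgeR adjusted p = 1.00). Its 95% interval in folds was 0.80 to 1.82, so that a change of properdin mRNA beyond 1.82-fold upward lay outside the interval.

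Cfb (chromosome 17, 34856374 to 34862518, 2751 bp of exon) was at 56.1, 285 and 40.1 CPM in the Lyve-1- libraries and at 528, 395 and 229 CPM in the Lyve-1+ libraries. A single library made the subsets overlap: Lyve-1- replicate 2 stood above Lyve-1+ replicate 3, while the other Lyve-1- libraries were below every Lyve-1+ library. In the 6-week pools Cfb was 9.41-fold higher in the Lyve-1+ library, a ratio with no replicate. The means were 127 ± 137 and 384 ± 150 CPM, and the log2 fold change was 1.59 (SE 0.77, 95% interval -0.24 to 3.43, edgeR adjusted p = 0.752). Without Lyve-1- replicate 2 it was 3.0 (SE 0.39, adjusted p = 0.00017). The summed CPM of 6 monocyte marker genes, none of them at 0 in any library, was 715, 1102 and 458 in the Lyve-1- libraries and 313, 823 and 361 in the Lyve-1+ libraries. Among the Lyve-1- libraries the sum had the same order as Cfb, with both highest in replicate 2. Among the Lyve-1+ libraries the order differed, since the sum was lowest in replicate 1, which had the highest Cfb. The part of monocytes in the values of Cfb was not tested. Reads of Cfb may also come from Gm20547, an annotated read-through gene on the same strand that shares its exons and is not in the table.

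Relative to properdin, factor B mRNA per kb of exon was 0.213 ± 0.245 in the Lyve-1- libraries and 0.481 ± 0.0812 in the Lyve-1+ libraries. The ratio ran from 0.0671 to 0.496 in Lyve-1- cells and from 0.388 to 0.538 in Lyve-1+ cells, and it overlapped between the subsets. An exact permutation test of the difference in log2 ratio (1.80, two-sided) gave p = 0.2, where 3 libraries against 3 cannot go below 0.1. With the ratios of the receptors and of the membrane inhibitors given below, 3 ratios were tested, and the adjusted p was 0.6.

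The 3 membrane inhibitors were low beside properdin and the receptors, and each was highest in Lyve-1+ replicate 3. Cr1l (chromosome 1, 195097382 to 195131586, 3239 bp of exon) was at 13.6, 12.7 and 20.3 CPM in the Lyve-1- libraries and at 35, 33 and 66.5 CPM in the Lyve-1+ libraries. The groups stood apart, with counts from 139 to 162 against 460 to 688 behind these values. The means were 15.5 ± 4.13 and 44.8 ± 18.8 CPM, a fitted difference of 2.89-fold (95% interval 1.32 to 6.33). The log2 fold change was 1.53 (SE 0.53, edgeR adjusted p = 0.351), and Cr1l ranked 435 of all genes by its p. It did not pass the correction. In the 17 alternatives the log2 fold change stayed between 1.11 and 1.90, with adjusted p from 0.166 to 0.928.

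Cd55 (chromosome 1, 130439027 to 130462744, 2533 bp of exon) was at 18.7, 14.2 and 47.8 CPM in the Lyve-1- libraries and at 19.0, 30.6 and 118 CPM in the Lyve-1+ libraries. The highest library of each subset was replicate 3, and the subsets overlapped. The means were 26.9 ± 18.3 and 55.8 ± 53.9 CPM, and the log2 fold change was 1.05 (SE 0.68, 95% interval -0.42 to 2.53, edgeR adjusted p = 0.922). One library decided its sign, since without Lyve-1+ replicate 3 it was -0.12. The antisense gene Gm16083 overlaps Cd55 exons and is not in the table, so reads from it could not be told apart if the counting ignored strand. The paralog Cd55b (listed as Daf2) was at 0 to 6.39 CPM and did not pass the filter, and reads could have been split between the 2 copies.

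Cd59a (chromosome 2, 104095801 to 104115354, plus strand, 1811 bp of exon) was at 0.504, 23.8 and 10.9 CPM in the Lyve-1- libraries and at 5.87, 8.58 and 39.8 CPM in the Lyve-1+ libraries. Its counts ran from 6 (Lyve-1- replicate 1) to 316 (Lyve-1+ replicate 3), and the subsets overlapped across most of their range. The log2 fold change was 0.62 with an SE of 1.10 and a 95% interval of -1.75 to 2.99 (edgeR adjusted p = 1.00), so that neither a rise nor a fall of several-fold lay outside it. Without Lyve-1+ replicate 3 it was -0.73. Its close paralog Cd59b had 0, 14 and 5 counts in the Lyve-1- libraries and 0 in each Lyve-1+ library.

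Marker sums of other cell types moved with Cr1l and Cd55 in part. The summed CPM of 8 fibroblast markers was 263, 299 and 247 in the Lyve-1- libraries and 524, 442 and 1361 in the Lyve-1+ libraries, without overlap, as for Cr1l. Of these 8 genes 1, Fbln1, was at 0, and only in Lyve-1- replicate 2. Among the Lyve-1- libraries the sum was lowest in replicate 3, where Cr1l was highest. The sum of 1361 came mainly from Dcn (428 CPM), Col6a1 (331), Col6a2 (258), Pdgfra (205) and Lum (105). Mfap5 was lowest of all in that library (3.02), and Dpt (26.7) was below the other Lyve-1+ libraries. The summed CPM of 8 neutrophil markers was highest in replicate 3 of each subset, at 83.4 and 297 for Lyve-1- and Lyve-1+, beside 26.5 to 57.7 in the other libraries. The sum of 297 came mainly from S100a9 (173 CPM), Cxcr2 (49.1) and S100a8 (46.0), while Ltf was lowest in that library (0.504, beside 3.95 to 17.5 in the others) and Ngp and Camp were at 0 there. Of the 8, 5 were at 0 in at least 1 library. The summed CPM of 6 B cell markers was also highest in replicate 3 of each subset, at 42.4 in Lyve-1- and 109 in Lyve-1+ cells, with 3 of the 6 (Cd79a, Ms4a1 and Pax5) at 0 in at least 1 library. Among the Lyve-1- libraries Cd59a was highest in replicate 2, the library with the lowest neutrophil sum but also with the highest fibroblast sum. The B cell sums there were 5.88, 38.4 and 42.4, lowest in replicate 1 as for Cd59a. The gate on CD45 and CD11b is meant to leave out fibroblasts and most B cells, but markers of both were counted in every library. The part of these cells in the values of Cr1l, Cd55 and Cd59a was not tested.

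The ratio of Cd55 to Cr1l per kb of exon was 2.07 ± 0.839 in the Lyve-1- libraries and 1.38 ± 0.801 in the Lyve-1+ libraries. The difference in log2 ratio was -0.67, with an exact permutation p of 0.4 (adjusted over the 3 ratios 0.6). The genes whose log2 CPM most closely followed that of Cr1l over the 6 libraries were Stk19 (Pearson's r 0.997), Cyp2c37 (0.994) and Nol12 (0.992). Among 13347 genes, 57 had an r above 0.95 with Cr1l. These correlations describe 6 points that share library, depth and subset. Stk19 ran from 6.81 to 9.77 CPM in Lyve-1- cells and from 15.6 to 29.5 CPM in Lyve-1+ cells. Cyp2c37 was at 0, 0 and 0.292 CPM in the Lyve-1- libraries, below the limit of 3 counts, and at 1.45, 1.96 and 15.1 CPM in the Lyve-1+ libraries.

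The receptors for C3a and C5a were both abundant, and both had higher means in Lyve-1+ cells with overlap between the subsets. C3ar1 (chromosome 6, 122847138 to 122856161, 4305 bp of exon) was at 391, 525 and 275 CPM in the Lyve-1- libraries and at 716, 581 and 436 CPM in the Lyve-1+ libraries. Lyve-1- replicate 2 stood above Lyve-1+ replicate 3, the same crossing as for Cfb. The means were 397 ± 125 and 578 ± 140 CPM, and the log2 fold change was 0.54 (SE 0.29, 0.95 to 2.23 in folds, edgeR adjusted p = 0.767). C3ar1 stood above 95.8% of the genes tested in every library.

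C5ar1 (chromosome 7, 16246743 to 16259540, 2570 bp of exon) was at 216, 314 and 191 CPM in the Lyve-1- libraries and at 446, 434 and 241 CPM in the Lyve-1+ libraries. Here too Lyve-1- replicate 2 was above Lyve-1+ replicate 3, and the 2 other Lyve-1- libraries were below all Lyve-1+ libraries. The means were 240 ± 65.4 and 374 ± 115 CPM, and the log2 fold change was 0.64 (SE 0.30, 0.99 to 2.44 in folds, edgeR adjusted p = 0.662). The directions of C3ar1 and C5ar1 held in all 17 alternatives, with log2 fold changes of 0.13 to 0.80 and 0.33 to 0.88.

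The 2 anaphylatoxin receptors kept nearly the same proportion to each other. Per kb of exon the ratio of C3ar1 to C5ar1 was 0.979 ± 0.111 in the Lyve-1- libraries and 0.946 ± 0.140 in the Lyve-1+ libraries. It stayed between 0.799 and 1.08 in all 6 libraries. The log2 ratio differed by -0.06 between the subsets (exact permutation p = 0.7, also after adjustment over the 3 ratios). Over the 6 libraries Pearson's r of log2 CPM was 0.94 between C3ar1 and C5ar1, 0.94 between Cfb and C3ar1 and 0.91 between Cfb and C5ar1. It was 0.76 between Cd55 and Cr1l and -0.63 between Cfp and Cd59a. These values describe 6 shared libraries and carry no test.

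Vsig4 (chromosome X, 96247203 to 96293438, 1432 bp of exon) had the lowest mean of the 8 in both subsets, although in Lyve-1+ replicate 1 it stood above Cd55 and Cd59a. It had 0, 4 and 6 counts in Lyve-1- replicates 1 to 3 and 257, 121 and 2 counts in Lyve-1+ replicates 1 to 3, or 0, 0.355 and 0.875 CPM against 19.6, 5.80 and 0.252 CPM. The transcript was thus above background in 2 Lyve-1+ libraries, whereas the third held fewer counts than 2 of the Lyve-1- libraries. At the density of counts over olfactory receptor genes, 1.47 and 1.70 counts would fall on Vsig4 in Lyve-1+ replicates 1 and 2, and 3.83 in Lyve-1- replicate 3. Against the limit of 3 counts in the 6-week Lyve-1- library, the 6-week Lyve-1+ library was at least 77.7-fold higher, with 1 library on each side. The log2 fold change of 4.38 had an SE of 2.32 and a 95% interval of -0.58 to 9.33 (edgeR adjusted p = 0.752). Without Lyve-1+ replicate 1 it was 2.91, and Vsig4 did not pass the filter in 4 of the 17 alternatives.

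**Figure D2:**
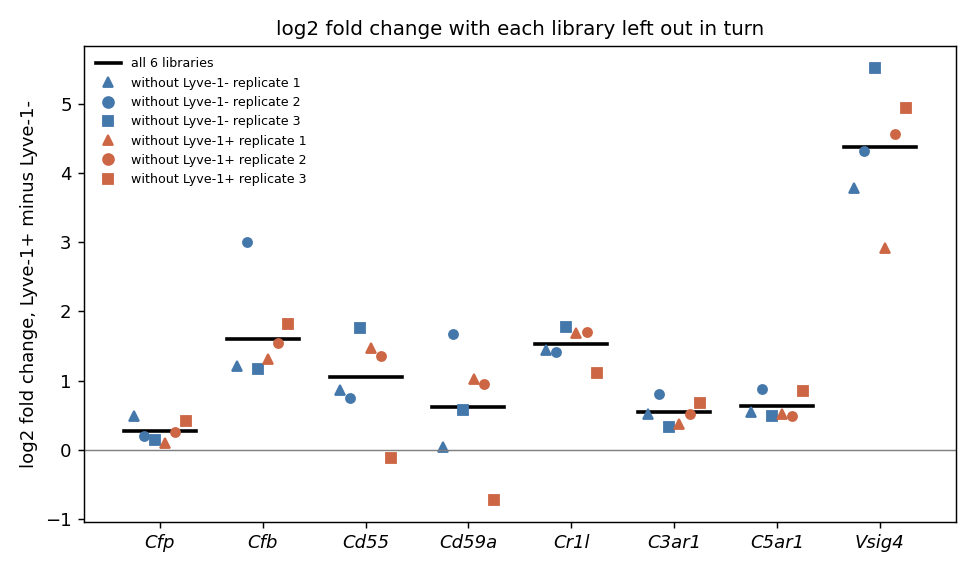
The log2 fold change (vertical axis, Lyve-1+ minus Lyve-1-) of each of the 8 genes with all 6 libraries (black line) and with each library left out in turn (markers, coloured by the subset of the library left out). Cd55 and Cd59a fall below 0 without Lyve-1+ replicate 3 (-0.12 and -0.73), Cfb stands at 3.0 without Lyve-1- replicate 2, and Cr1l stays between 1.11 and 1.77.

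Compared per length, the order of the levels was similar in both subsets. In Lyve-1- cells the mean CPM per kb of exon was 235 for Cfp, 93.5 for C5ar1, 92.2 for C3ar1, 46.2 for Cfb, 10.6 for Cd55, 6.49 for Cd59a, 4.79 for Cr1l and 0.286 for Vsig4. Of these neighbours Cfp was above C5ar1 and Cr1l above Vsig4 without overlap, and the others overlapped. In Lyve-1+ cells it was 283 for Cfp, 145 for C5ar1, 140 for Cfb, 134 for C3ar1, 22.0 for Cd55, 13.8 for Cr1l, 9.99 for Cd59a and 5.97 for Vsig4. Here Cfp did not overlap C5ar1, and the 3 genes from C5ar1 to C3ar1 overlapped one another and stood clear of Cd55. Properdin was therefore the most abundant mRNA of the 8 per length in every library, and the 3 inhibitors and Vsig4 lay below both receptors in every library.

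**Figure D3:**
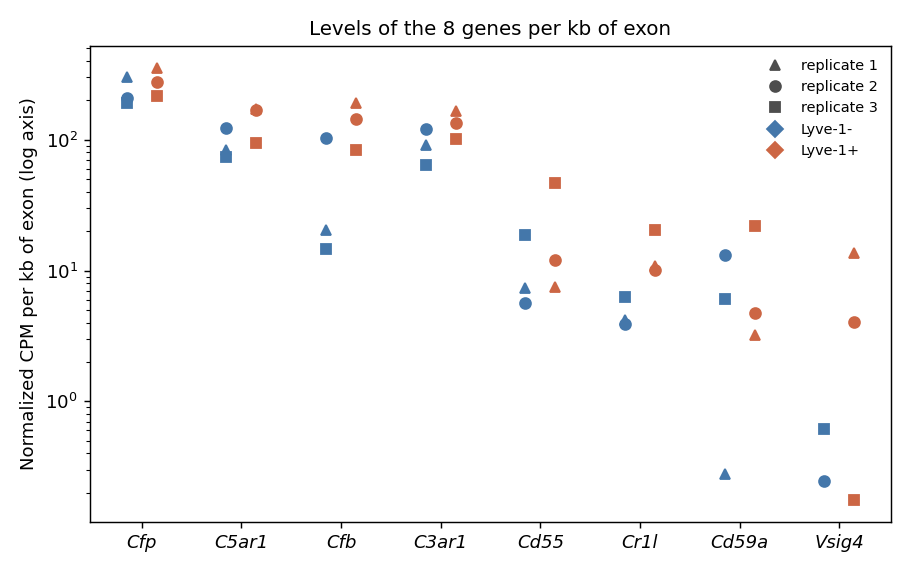
Normalized CPM per kb of exon (log axis) of the 8 genes in each library of the Lyve-1- (blue) and Lyve-1+ (orange) subsets, ordered by the mean in Lyve-1+ cells; the Lyve-1- replicate 1 value of Vsig4, at 0, cannot be drawn. Cfp has the highest means (235 and 283) and Vsig4 the lowest (0.286 and 5.97).

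When 10 weeks was set against 6 weeks, in a fit that also held the subset, 0 of the 8 passed the correction in edgeR, beside 3 genes (0.0225%) of all, and 0 passed in DESeq2, beside 43 genes (0.333%). At an unadjusted p under 0.05 there were 2 of the 8 by either tool, Cfp and Cd59a, beside 444 genes (3.33%) of all in edgeR and 1032 (4.76%) in DESeq2. Cfp was at 497 and 584 CPM at 6 weeks and at 313 to 455 CPM at 10 weeks, without overlap, a log2 difference of -0.57 (SE 0.26, edgeR adjusted p = 1.00). Cd59a was at 0.504 and 5.87 CPM at 6 weeks and at 8.58 to 39.8 CPM at 10 weeks, again without overlap, a log2 difference of 3.23 (SE 1.22, edgeR adjusted p = 1.00). Both 6-week libraries thus lay on one side of the 4 others for these genes. The share of all genes that do so was not counted, so this is a description only. With 1 library of each subset at 6 weeks, age and those pools cannot be told apart.

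The difference between the subsets was compared between the ages by an interaction term. In edgeR 0 of the 8 passed the correction (lowest adjusted p = 0.976), beside 1 gene (0.00749%) of all, and 0 were under an unadjusted p of 0.05, beside 613 genes (4.59%). DESeq2 had 0 after correction (lowest adjusted p = 0.436), beside 84 genes (0.612%), and 1, Vsig4, at an unadjusted p under 0.05, beside 1611 genes (7.44%).

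Around the 8 genes, a list of 21 other regulators and receptors had 20 in the table, of which 12 were tested. Of the 12, 6 had a log2 fold change above 0 and 6 below, with a median of -0.11. In edgeR 0 of the 12 passed the test, and 1, Cr2, was under an unadjusted p of 0.05. DESeq2, run without the filter, called 1 of the list, a gene that the filter had removed. Cr2, complement receptor 2 of B cells and follicular dendritic cells, had the largest log2 fold change of the list at 2.62 (SE 0.84, adjusted p = 0.308). It was at 4.12, 6.57 and 13.6 CPM against 8.61, 27.4 and 112 CPM, and its highest library was the one with the highest B cell marker sum. Cpn1, the catalytic subunit of the carboxypeptidase that inactivates C3a and C5a, had the lowest value at -1.06 (SE 1.90, adjusted p = 1.00).

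A list of 27 complement components had 21 genes tested, of which 18 had a log2 fold change above 0, with a median of 1.66, and 3 rose by the test. They were C4b (log2 fold change 3.17, SE 0.49, adjusted p = 0.0199), which supplies part of the classical convertase, C1qa (1.66, SE 0.33, adjusted p = 0.0376), a chain of the recognition protein C1q, and Fcna (5.64, SE 0.80, adjusted p = 0.031), a lectin that starts the cascade on sugars. Fcna was the largest rise and Masp1, a protease of the lectin pathway, the lowest value at -3.24 (SE 2.87, adjusted p = 1.00). None of the 3 calls held with every library in turn left out. C4b was not called without Lyve-1- replicate 1 or Lyve-1+ replicate 3, C1qa without Lyve-1- replicate 3 or Lyve-1+ replicate 1, and Fcna without Lyve-1- replicate 3 or Lyve-1+ replicate 2 or 3. In the 10-week libraries alone Fcna was called, and C4b and C1qa were not. These lists were drawn up with results of these libraries known, and the count in each is a description.

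**Figure D4:**
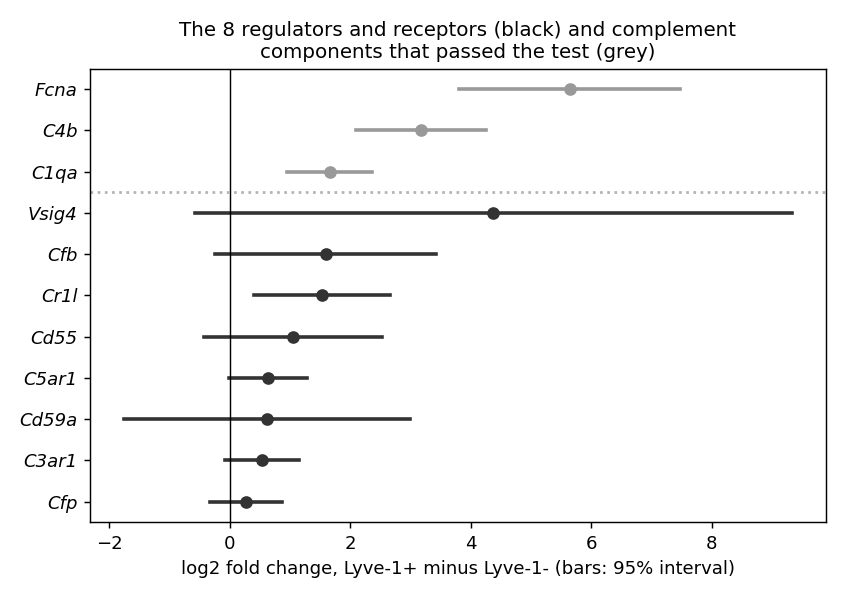
The log2 fold change (horizontal axis, Lyve-1+ minus Lyve-1-) with its 95% interval for the 8 regulators and receptors (black) and for the 3 complement components that passed the test (grey), above the dotted line. Among the 8, the interval of Cr1l alone (0.40 to 2.66) lies above 0, before adjustment, and that of Vsig4 is the widest.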

How the data were processed

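The authors sorted the cells, prepared stranded total RNA libraries, mapped paired reads to mm10 with HISAT2 2.0.2 and took counts for each gene symbol from featureCounts 1.5.0, per the labels. They deposited whole-number counts without normalization. The annotation and strand setting of the counting are not given in the sources used here. A failed 6-week library, removed by the authors per their methods, was not analysed here.

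The 8 genes and the gene lists were chosen with earlier results of these data known. In R 4.3.3, edgeR 4.0.16 filtered genes (filterByExpr by subset), scaled them (TMM) and tested them (robust quasi-likelihood F test), with Benjamini-Hochberg adjustment over all 13348 genes tested and a call at an adjusted p under 0.05. All 6 libraries entered each fit, with the subset as the only term, or with age or its interaction beside it. Alternatives were DESeq2 1.42.0, other scalings and filters, stricter limits, the replicate number as a block, the 10-week libraries alone, age as a covariate, no ribosomal RNA or mitochondrial genes, and each library left out. A subtraction of olfactory receptor density and the removal of 2 libraries together were added after the data were seen.

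Exon lengths came from the basic GENCODE M21 annotation on mm10, with 377 symbols unmatched. The genes named were the 8 genes, in each of the 2 wider complement lists every gene called and the largest rise and fall, the 3 genes most like the member with the smallest p, and Lyve1. A further gene that the rule names is not reported here and was left out of its list. The tests were tried on simulated counts.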

Additional observations from a re-analysis of the deposited data

How the results depend on the processing

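With all 6 libraries none of the 8 genes was called, and 84 of all genes were. Among the 8, 1 was called without Lyve-1- replicate 2 (Cfb) and 0 in each of the other alternatives, and no alternative called one for age. The count over all genes was 15 under the stricter limits, 343 with DESeq2, 289 with no filter, 270 with the replicate block, 130 with age as a covariate, 39 in the 10-week libraries alone, 19 to 153 with 1 library left out, lowest without Lyve-1- replicate 3, and 3 without both Lyve-1- replicate 3 and Lyve-1+ replicate 1. Of the other regulators and receptors, 0 were called in the main test, 1 with DESeq2, 1 (Cr2) with no filter and 0 with 1 library left out or without both libraries. Of the components, 3 were called in the main test, 0 under the stricter limits, 6 with DESeq2, 6 with no filter, 5 with at least 10 counts in every library, 5 with the replicate block, 6 with age as a covariate, 1 in the 10-week libraries alone, 1 to 5 with 1 library left out and 0 without both libraries. The cause was not tested.

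The log2 fold change changed sign for Cd55 (-0.12) and Cd59a (-0.73) without Lyve-1+ replicate 3 and for Cfp (-0.078) without both libraries. With libraries left out it reached 2.15, 1.67 and 0.49 at most for these genes. Same-numbered libraries shared an age, and they correlated at -0.046, -0.0018 and -0.147, with 0 of 6 correlating best with its own number. With 3 libraries per subset, these values cannot show whether same-numbered libraries came from the same mice. The replicate block called 270 of all genes and none of the 8. Cd59a was untested in 1 alternative and Vsig4 in 4, since they did not pass its filter. The shallowest libraries, at 6478007 and 8061411 counts, limit the low genes.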
